A study of Drosophila melanogaster with 26 samples.

Results

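The replication-dependent histone genes of Drosophila melanogaster were followed in 26 RNA sequencing libraries of early embryos. The members were chosen by name, as every gene symbol that begins with His1:, His2A:, His2B:, His3: or His4:, which gave 111 gene copies of the 14220 genes listed. There were 23 copies of His1, 20 of His2A, 23 of His2B, 23 of His3 and 22 of His4. For each library the values of all copies of a class were summed, and the 5 class sums and the single copies were compared between genotypes and days.

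Embryos at nuclear cycles 13 to 14 were pooled 3 to a sample, and the study asked how embryos without the fifth zinc finger of Zelda, a pioneer factor of the zygotic genome, differ from wild type. The wild type of day 1 carried the genotype label sfGFP-ZLD (n = 3) and that of day 2 the label H2B-EGFP (n = 6), so that day and genotype label of the wild type cannot be told apart. The Zf5 libraries carried the label mNG-ZF5 GLC on day 1 (n = 3) and day 2 (n = 6). The 8 libraries of day 3 carried the label Zld294, so that this genotype and its day cannot be told apart either. The labels do not expand GLC or say what drives the fusions. The labels do not say whether the samples of a group had different parents, so p-values measure the spread between pools of embryos, which may be technical.

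Replication-dependent histone mRNAs are made when DNA is copied, and in Drosophila they come from a long tandem array whose repeat unit holds 1 gene for each of the linker histone H1 and the core histones H2A, H2B, H3 and H4. Transcription and mRNA processing take place in a nuclear structure on the array, the histone locus body, and the mRNAs end in a stem-loop bound by Slbp in place of a poly(A) tail. The egg supplies histone mRNA and protein for the first rapid cycles, and zygotic transcription of the array starts before most of the genome.

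The values are in TPM, a read level per unit of transcript length that is scaled to the same total in each library. TPM keeps no depth, so the number of reads is unknown and no counting interval is given. The zld transcript ran from 900 to 1344 TPM in wild type, from 148 to 953 in Zf5 and from 0.0873 to 43.2 in Zld294. Summed TPM of 10 blastoderm markers ran from 409 to 8775 in wild type, 106 to 3884 in Zf5 and 326 to 755 in Zld294, and 8 markers of adult or larval tissue summed to 0.251 to 6.70. Between 6716 and 8913 genes reached 1 TPM. The Zf5 libraries of day 2 were the least alike, with a median correlation to their own group of 0.881 in replicate 6 and 0.886 in replicate 1, against 0.946 or more in every library outside that group.

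All 111 copies matched the Ensembl annotation of BDGP6.54. They are single-exon genes on chromosome 2L between positions 21416953 and 21541681, a span of 125 kb, with His1, His2A and His3 on the plus strand and His2B and His4 on the minus strand. Counting units from each His1 copy gave 23 units, of which 19 held all 5 classes. The copies are near-identical, and the level given to one copy depends on how shared reads were divided. In these files 31 sets of copies could be told apart, meaning that copies within a set had the same TPM in every library to within 1e-06. Class sums do not depend on the division of reads within a class, and single copies are reported below as uncertain.

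In each class the 2 sets with the highest sums held 52.7% of the summed TPM (7 copies of His1) or more, and His3 had only these 2 sets. His2A:CG33808, in the unit numbered 4 (2L:21433862-21434337), held 52.6% of the summed His2A TPM over the 26 libraries, with a mean of 262 TPM, and a set of 9 copies led by His2A:CG33832 held 41.4%. A set of 9 copies led by His4:CG31611 (mean 14.2 TPM for each copy) held 99.2% of His4, and a set of 18 copies led by His3:CG31613 (2.03 TPM each) held 96.0% of His3. His1 was spread more widely. His1:CG33816 (2L:21456113-21457135, mean 102 TPM) held 23.3% of His1 and a 6-copy set led by His1:CG33837 held 29.4%. For His2B, His2B:CG33868 had the highest mean of a single copy, 43.6 TPM. The lowest means were 0.0384 TPM for His1:CG33804, 0.0305 for His2A:CG33853, 0.417 for His2B:CG33890, 0.303 for His3:CG33818 and 0.0118 for His4:CG33907. In all, 81 copies had a mean of at least 1 TPM, 43 reached 1 TPM in every library and 17 reached it in none.

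**Figure D1:**
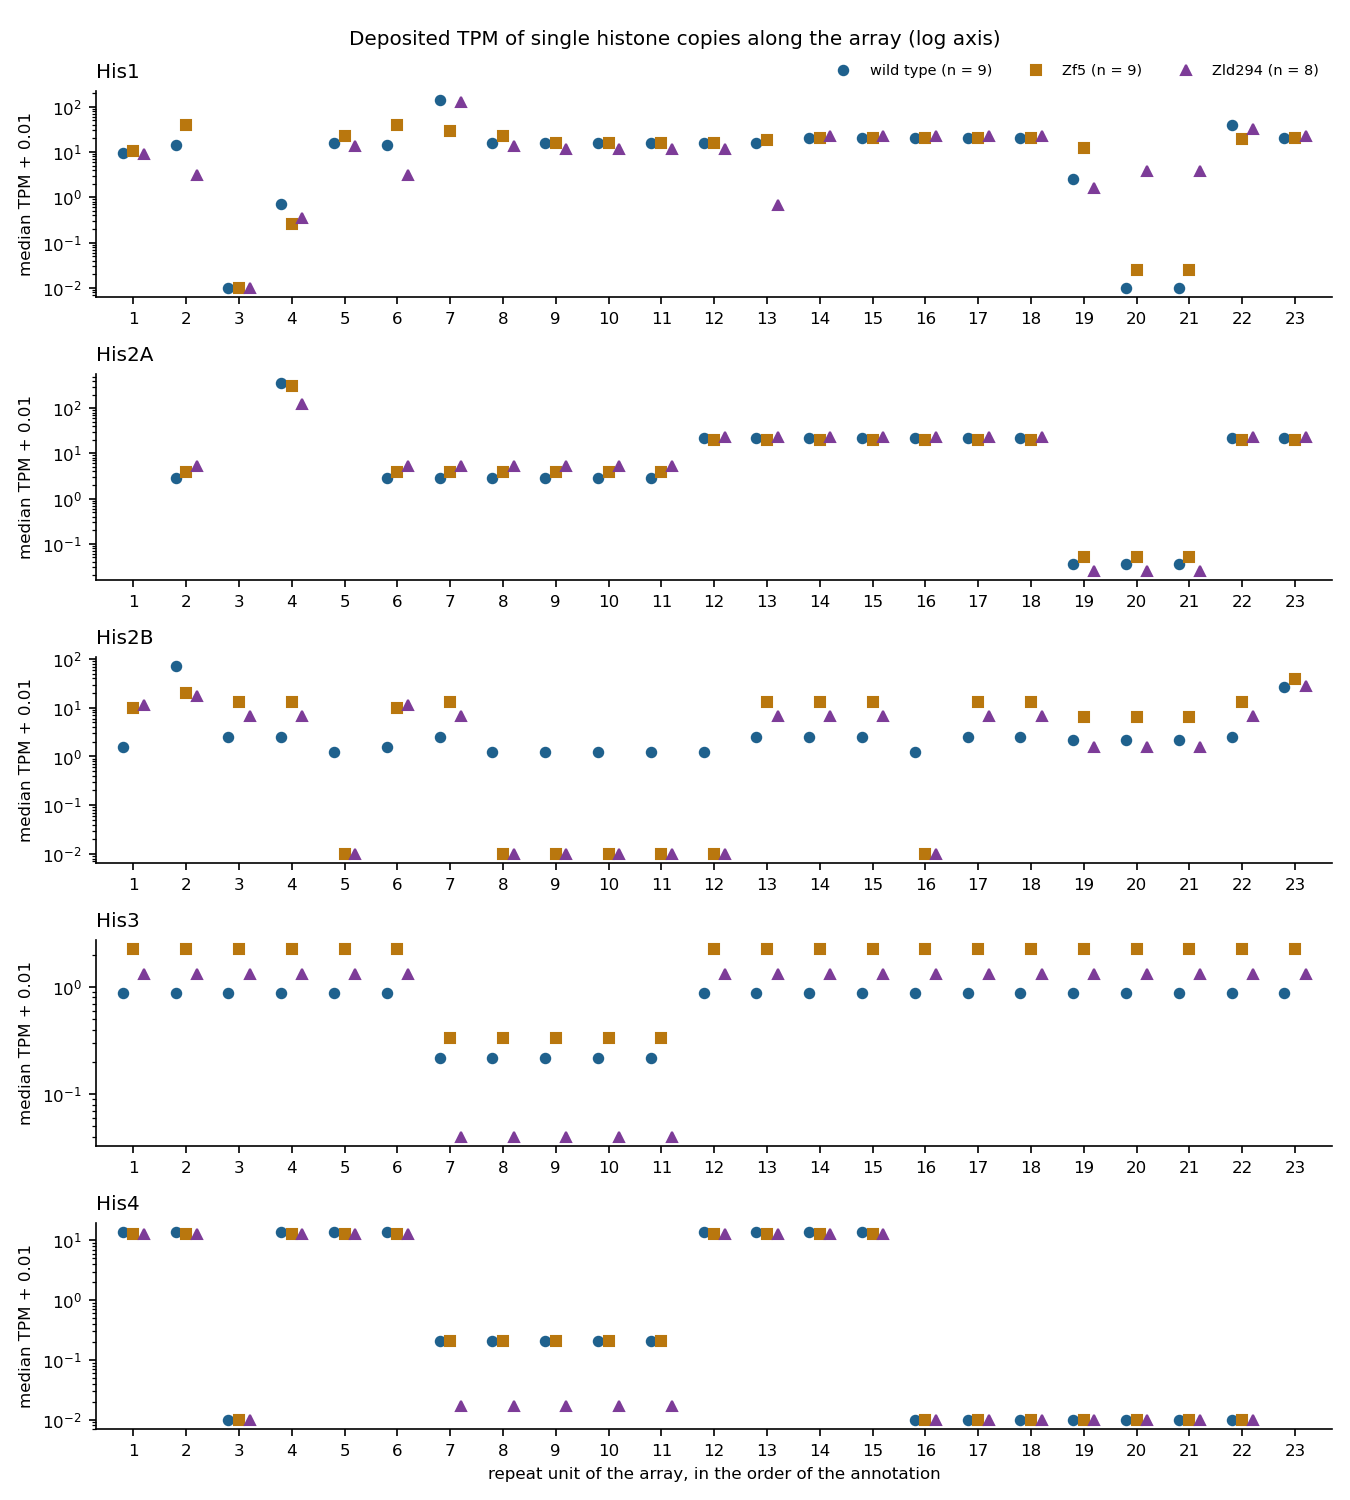
Median TPM of each histone copy (log axis, 0.01 added so that 0 can be drawn) by repeat unit, 1 panel a class, for wild type (circles, n = 9), Zf5 (squares, n = 9) and Zld294 (triangles, n = 8). Copies of a set share 1 value and form flat runs, His2A:CG33808 in unit 4 stands above the other His2A copies in each genotype, and His1:CG33816 in unit 7 stands above the other His1 copies in wild type and Zld294.

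Some low copies of different classes lay in the same units, which also held high copies of other classes. The 5 copies of the lower His3 set and the 5 copies of the set led by His4:CG33891 (mean 0.165 TPM) both occupied units 7 to 11. Units 19 to 21 held the lowest His2A set, and units 16 to 22 held the 3 His4 sets led by His4:CG33877, His4:CG33871 and His4:CG33869, with means of 0.0280, 0.0174 and 0.0244 TPM. In contrast, unit 7 also held His1:CG33816 (mean 102 TPM) and unit 22 also held His1:CG33861 (30.2 TPM). The lowest His1 copies, His1:CG33804 and His1:CG33807, lay in units 3 and 4.

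Summed over the 5 classes, the histone copies reached 902 to 2672 TPM in a library. His1 and His2A were the 2 highest classes in 23 of the 26 libraries, and His3 was the lowest in all 26. Set against each other within a library, His1 was above His2A in 13 of the 26. It was above in 7 of 8 Zld294 libraries, 1 of 6 of wild type day 2, 2 of 3 of wild type day 1 and 3 of 9 Zf5 libraries. His2B was above His4 in 6 of 6 libraries of wild type day 2, by 8.92 to 83.1 TPM, and in 3 of 3 of Zf5 day 1, by 84.1 to 279 TPM. It was below in 3 of 3 of wild type day 1, where His2B minus His4 ran from -11.4 to -2.99 TPM. It was above in 4 of 6 libraries of Zf5 day 2 and 4 of 8 of Zld294. These orders were not tested. The 3 libraries in which His2B stood among the 2 highest classes were replicates 2, 4 and 6 of Zf5 day 2.

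**Figure D2:**
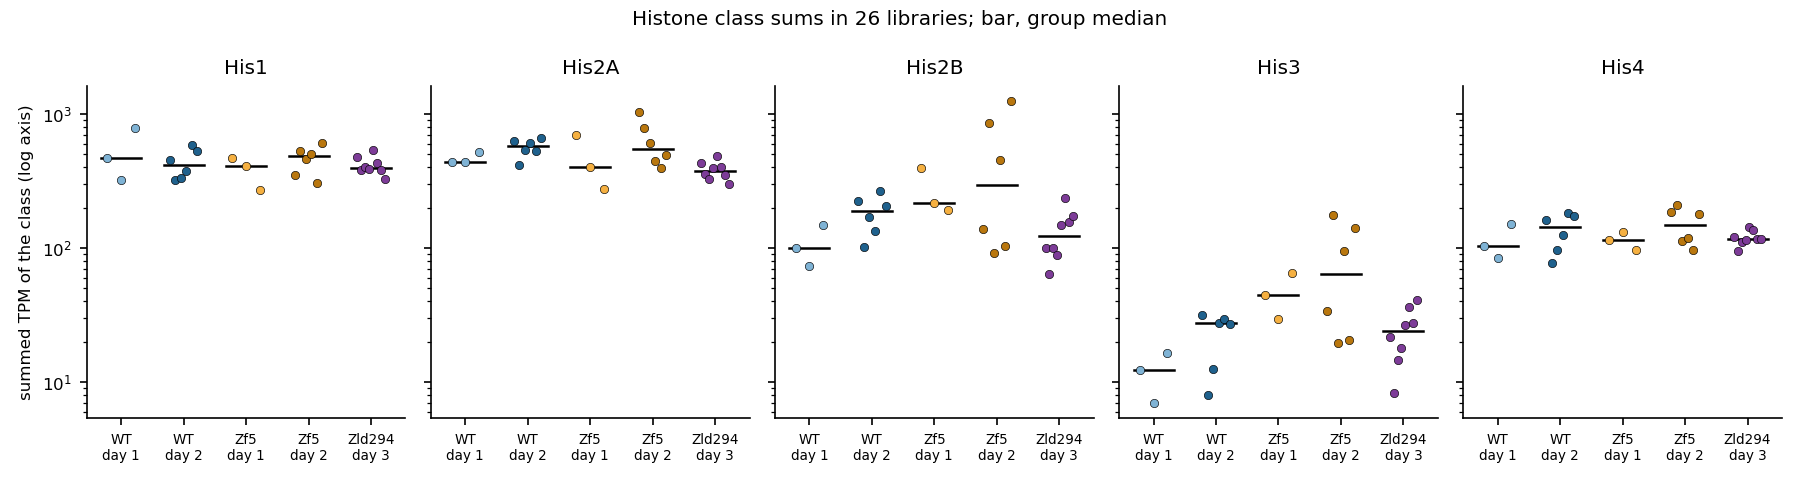
Summed TPM of each histone class (log axis) in every library by group, with a bar at the group median. His3 is higher in Zf5 than in wild type on day 1 without overlap, and His2B and His3 spread most in Zf5 day 2, where His2B ran from 92.4 to 1245 TPM.

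Zf5 embryos were compared with wild type with day as a covariate. His3 was the class that passed the test. On day 1 the His3 sums were 12.3, 6.95 and 16.4 TPM in wild type and 44.2, 29.3 and 65.4 TPM in Zf5. Every Zf5 library of that day lay above every wild-type library. On day 2 wild type ran from 8.05 to 31.6 TPM (median 27.3) and Zf5 from 19.5 to 175 TPM (median 64.2). On this day the groups overlapped, with 2 of 6 Zf5 libraries within the wild-type range. Over both days His3 was 2.98-fold higher in Zf5 (log2 fold change on log2(TPM + 1) 1.58, SE 0.43, limma adjusted p = 0.0421). This was 1 of 5 class sums called (an adjusted p under 0.05), where 4.91% of the 8068 features tested were called.

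The His3 call was lost in 18 of 26 alternatives, all of which kept the direction, with log2 fold changes from 0.98 to 1.78 and adjusted p from 0.0118 to 0.0877. Where each copy was a feature of its own, the set that held 96.0% of His3 was not called. Of the 18 single libraries that could be left out, the call was kept without replicate 1, 3 or 5 of Zf5 day 2, replicate 5 of wild type day 2 or replicate 3 of wild type day 1, and lost without any other.

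His2B, which pairs with H2A in the nucleosome, was higher in Zf5 by estimate and did not pass. On day 1 its sums were 99.7, 72.9 and 148 TPM in wild type and 394, 216 and 192 TPM in Zf5, again without overlap. On day 2 wild type ran from 101 to 266 TPM (median 188) and Zf5 from 92.4 to 1245 TPM (median 297), with 3 Zf5 libraries within or below the wild-type range and 3 above it. The pooled log2 fold change was 0.93 (95% interval -0.02 to 1.88, adjusted p = 0.208). For the other classes the estimates were small, at -0.07 for His1 (95% interval -0.49 to 0.35), 0.02 for His2A (-0.39 to 0.43) and 0.12 for His4 (-0.31 to 0.54). H3 and H4 pair with each other in the nucleosome, and the difference between the changes of their classes was not tested.

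Within day 1 alone, limma called 0 of the 5 class sums, with 2 at an unadjusted p under 0.05, among 7098 features of which 1.65% were called. The log2 fold change was 1.87 for His3 (adjusted p = 0.102) and 1.30 for His2B (adjusted p = 0.156). Both classes were without overlap, as were 16.3% of all features in that direction. Within day 2 alone it also called 0 classes, with 1 at an unadjusted p under 0.05, where 1.91% of 6915 features were called, and gave 1.43 for His3 (adjusted p = 0.389) and 0.75 for His2B (adjusted p = 0.730). An interaction of genotype with day was called by limma for 0 classes, with 0 at an unadjusted p under 0.05, and for 0.483% of features.

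**Figure D3:**
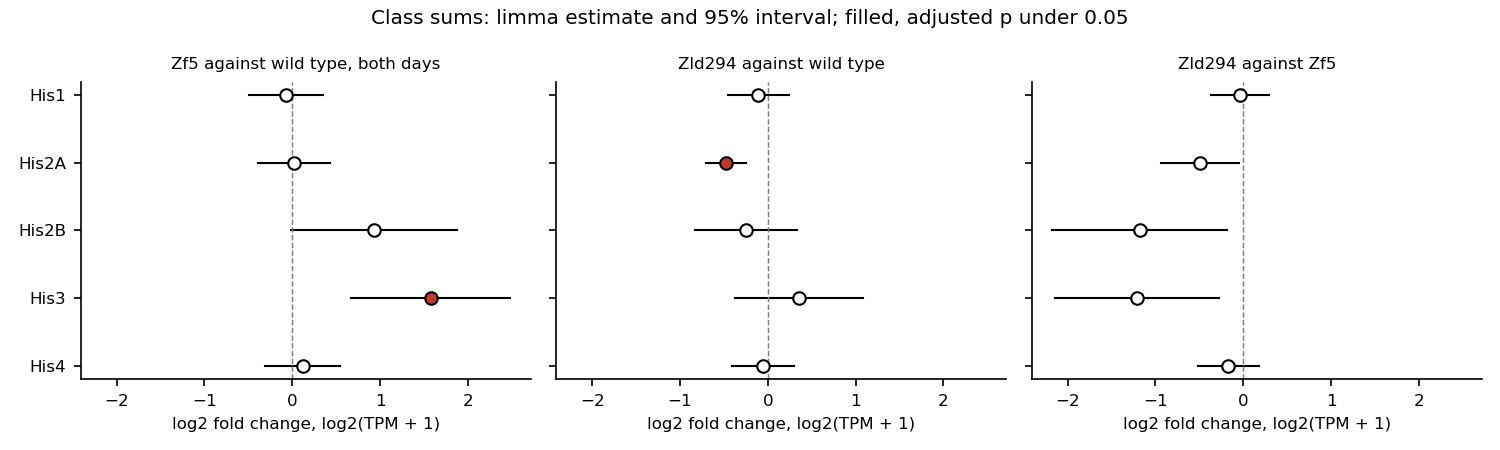
Log2 fold change of each class sum (limma on log2(TPM + 1)) with its 95% interval in 3 comparisons, filled where the adjusted p is under 0.05. His3 in Zf5 against wild type and His2A in Zld294 against wild type are the 2 filled points.

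A score of maternal transcripts, used as a measure of stage, was lower where His2B and His3 were higher in Zf5 and in Zld294. The maternal transcript score is the mean log2(TPM + 1) of 8 transcripts chosen as supplied by the egg and cleared around this stage (twe, smg, nos, bcd, png, gnu, plu and Hsp83). The 8 did not all fall together. In wild type, twe was highest in the library with the lowest score on each day, at 317 TPM on day 1 and 302 TPM on day 2. In Zf5 it was lowest, at 63.3 TPM, in the library with the lowest score. The score ran from 6.16 to 8.01 in wild type, from 4.39 to 8.13 in Zf5 and from 7.49 to 8.12 in Zld294. Its Pearson correlation with the log2 sums of His2B and His3 was -0.91 and -0.81 in Zf5. It was -0.82 for both in Zld294, and -0.15 and -0.17 in wild type. The lowest score of all, 4.39, was in replicate 6 of Zf5 day 2, which had the highest His2B sum, 1245 TPM. Replicates 2 and 4 of that group scored 6.10 and 5.64 and had 858 and 455 TPM of His2B. The remaining 3 scored 7.84 to 8.13 and had 92.4 to 139 TPM. In wild type the library with the lowest score, 6.16 (day 1), had 148 TPM of His2B and 16.4 TPM of His3. That was below the 224 and 31.6 TPM of the library with the highest score, 8.01 (day 2). Within each day, however, the wild-type library with the lowest score had the highest His2B sum. On day 2 it was replicate 5, with a score of 6.75, 266 TPM of His2B and 29.4 TPM of His3. In Zld294 the lowest score, 7.49, stood with 172 and 40.8 TPM and the highest, 8.12, with 63.7 and 8.23 TPM. With the score as a covariate, the log2 fold change of His3 in Zf5 was 0.98 (adjusted p = 0.0586) and that of His2B was 0.21. The part of stage in the result was not otherwise tested, and neither was whether the score itself depends on genotype. In bulk embryos fewer cells of a type and less RNA in each cell cannot be told apart.

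**Figure D4:**
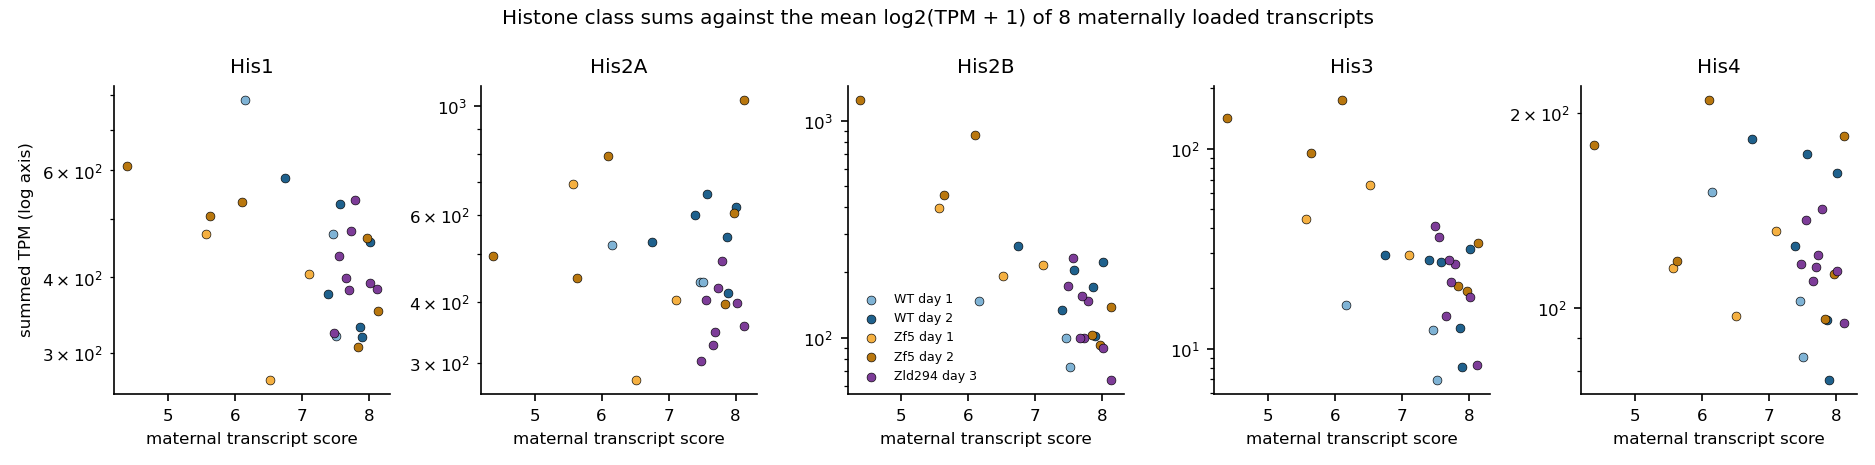
Class sums (log axis) against the maternal transcript score (mean log2(TPM + 1)) in 26 libraries coloured by group. His2B and His3 are highest in the Zf5 libraries whose score is lowest, while the Zld294 libraries all score 7.49 or more.

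Single copies within a class moved in opposite directions in Zf5. Of the 31 sets, 22 passed the filter on low values; 3 were higher and 3 lower in Zf5, and 5.2% of the 8151 features of that fit were called. All of these copies were picked from these same data. His1:CG33816 and His2B:CG33890 had the highest and the lowest mean of their class over the 26 libraries, and the others were named because they were called.

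His1:CG33816, the most abundant linker histone copy, had 140, 97.7 and 249 TPM in wild type day 1 and 32.7, 39.1 and 19.0 TPM in Zf5 day 1, without overlap, as were 7.52% of all features in that direction. On day 2 wild type ran from 101 to 156 TPM (median 123) and Zf5 from 3.998 to 181 TPM (median 28.1). The single high Zf5 library was replicate 6 of day 2, and the next was at 35.7 TPM. The log2 fold change was -2.22 (SE 0.46, adjusted p = 0.00699). As a share of His1 it was 25.2% to 31.8% in wild type (median 30.4%) and had a median of 7.01% in Zf5. The 22 other His1 copies together had a median of 318 TPM in wild type and 430 TPM in Zf5, with ranges that overlapped.

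Other His1 copies were higher in Zf5. His1:CG31617 and His1:CG33813, which share 1 value and lie in units 2 and 6, had 9.40, 13.4 and 32.5 TPM each in wild type day 1 and 52.3, 39.0 and 26.7 TPM in Zf5 day 1. On day 2 they ran from 12.7 to 23.0 TPM in wild type (median 15.7) and from 19.9 to 63.2 TPM in Zf5 (median 43.2). The ranges overlapped on both days, and the log2 fold change was 1.22 (SE 0.26, adjusted p = 0.00973). His1:CG33852 in unit 19 had 2.06, 3.05 and 2.51 TPM in wild type day 1 and 12.6, 3.38 and 11.7 TPM in Zf5 day 1. On day 2 it ran from 1.17 to 3.41 TPM in wild type (median 1.94) and from 5.39 to 44.3 TPM in Zf5 (median 15.1). The genotypes were apart on each day, as were 0.669% of all features in that direction, and the log2 fold change was 2.04 (SE 0.35, adjusted p = 0.0018). It was also the 1 copy called within day 2 alone (2.38, adjusted p = 0.0109), where 1.9% of features were called.

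Among His2B copies, His2B:CG17949 in unit 2 had 66.4, 17.3 and 32.1 TPM in wild type day 1 and 3.07, 9.08 and 8.46 TPM in Zf5 day 1, again without overlap. On day 2 it ran from 34.5 to 106 TPM in wild type (median 83.0) and from 17.6 to 52.2 TPM in Zf5 (median 35.4), with overlap. The log2 fold change was -1.54 (SE 0.33, adjusted p = 0.00916). The 9-copy set led by His2B:CG33870 moved the other way, at 0.452 to 12.8 TPM for each copy in wild type and 4.42 to 84.4 TPM in Zf5 (log2 fold change 2.12, adjusted p = 0.032). That call was lost in 13 of 26 alternatives, among them leaving out replicate 1, 2, 3, 4 or 6 of wild type day 2, replicate 2, 4 or 6 of Zf5 day 2, or replicate 1 of either genotype on day 1, with log2 fold changes of 1.83 to 2.35 without 1 library, and the value was 1.25 with the maternal score as a covariate. The 6 copies led by His2B:CG33890 reached 2.44 TPM in wild type and 0.260 TPM in Zf5 (log2 fold change -0.91, adjusted p = 0.0207), and with a pseudocount of 0.1 in place of 1 the value was -2.73. Only 5 libraries, all of wild type day 2, had 1 TPM or more of it, and wild type day 1 reached 0.589 TPM. The set thus passed the filter only through the group where it was high, and its call is no test of that direction. On day 1 alone 1 set was called, where 1.69% of features were. It was His2B:CG33902 with His2B:CG33910, at 0.452, 0.592 and 0.00847 TPM in wild type and 8.41, 11.8 and 9.87 TPM in Zf5 (log2 fold change 3.05, adjusted p = 0.0123). Every wild-type value was under 1 TPM. This set passed the filter only through the Zf5 libraries, where it was high, so its call is no test of that direction. That call was lost without replicate 1, 2 or 3 of Zf5 or replicate 1 of wild type (2.85 to 3.18 over the 6 libraries left out) and in 1 fit of all 26 libraries (adjusted p = 0.0835), and the value was 4.86 with a pseudocount of 0.1.

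**Figure D5:**
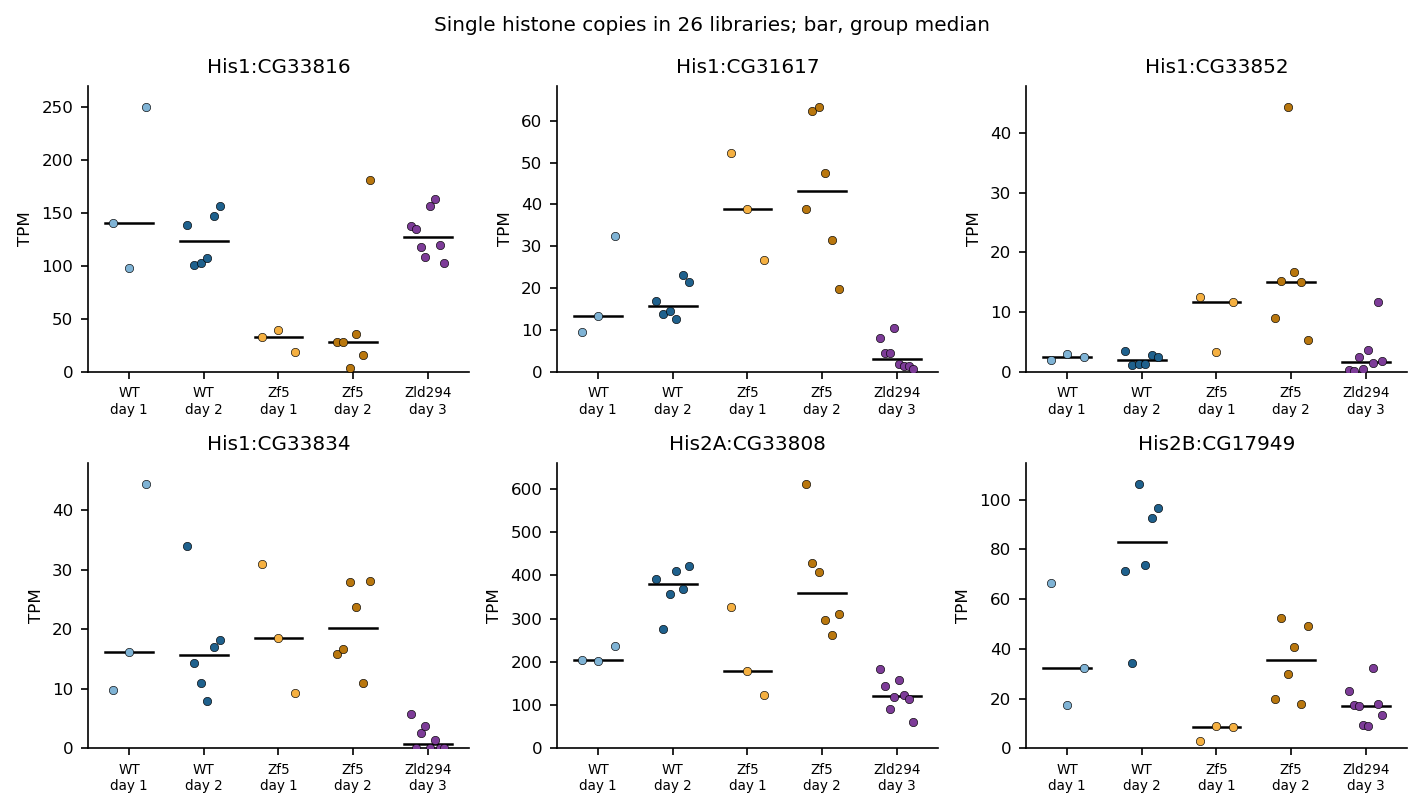
TPM of 6 single histone copies in every library by group, with a bar at the group median. His1:CG33816 is low in 8 of 9 Zf5 libraries, and His1:CG33834 and His2A:CG33808 are lower in all 8 Zld294 libraries than in any wild-type library.

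In Zld294 embryos the His2A sum was lower than in wild type. Wild type had 438, 438 and 522 TPM on day 1 and ran from 417 to 662 TPM on day 2 (median 571). Zld294 ran from 302 to 484 TPM (median 377), so that the groups overlapped. His2A was 1.39-fold lower (log2 fold change -0.47, SE 0.11, limma adjusted p = 0.00612). It was the 1 class of 5 that was called, where 15.1% of 6851 features were called. The estimates were -0.11 for His1 (95% interval -0.46 to 0.24), -0.25 for His2B (-0.83 to 0.33), 0.36 for His3 (-0.37 to 1.09) and -0.05 for His4 (-0.40 to 0.30). The His2A call was lost against the wild type of day 1 alone (-0.30, adjusted p = 0.113) and in 1 fit of all 26 libraries (adjusted p = 0.119).

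His2A:CG33808, the copy that held most of the class, was lower in Zld294. It had 205, 201 and 236 TPM in wild type day 1, ran from 276 to 422 TPM in wild type day 2 (median 380) and from 61.0 to 184 TPM in Zld294 (median 122). No Zld294 library reached the lowest wild-type library. The log2 fold change was -1.36 (SE 0.21, adjusted p = 0.00021), and -0.84 against the wild type of day 1 alone. The 19 other His2A copies together had 141 to 286 TPM in wild type (median 233) and 212 to 325 TPM in Zld294 (median 242), a measure that was not tested.

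Of 19 sets tested, 1 was higher and 4 were lower in Zld294, where 15.0% of all features of that fit were called. His1:CG33834 in unit 13 was under 0.001 TPM in replicates 2, 5, 7 and 8 and ran up to 5.80 TPM in Zld294, against 7.97 to 44.5 TPM in wild type. The genotypes did not overlap (log2 fold change -3.14, SE 0.44, adjusted p = 8.52e-05, and -4.92 with a pseudocount of 0.1). With those 4 replicates under 1 TPM, the copy passed the filter only through wild type, where it was high. Its call and its lack of overlap are therefore no test of that direction. His1:CG33834 and His2A:CG33808 were the 2 of 79 copies tested without overlap in the lower direction, where 2.44% of features were. The His1:CG31617 set was at 0.784 to 10.4 TPM against 9.40 to 32.5 TPM (log2 fold change -2.07, SE 0.36, adjusted p = 0.000591), a comparison that shares its wild-type libraries with that of Zf5, where the same set was higher. Its lowest Zld294 value was under 1 TPM, so it too passed the filter only through wild type, and its call is no test of that direction. His2B:CG17949 was at 8.89 to 32.2 TPM against 17.3 to 106 TPM (-1.77, SE 0.34, adjusted p = 0.00179). It lost its call against the wild type of day 1 alone (-1.01, adjusted p = 0.0971). The His2B:CG33902 set was higher, at 3.04 to 20.6 TPM against 0.00847 to 15.8 TPM (1.75, SE 0.51, adjusted p = 0.0251), and was not called without replicate 6 of Zld294 (1.54 to 2.05 without 1 library), in 1 fit of all 26 libraries (adjusted p = 0.0783) or against the wild type of day 2 alone (1.11, adjusted p = 0.109). Against that of day 1 alone it was 3.05, but every wild-type value of that day was under 1 TPM. In that fit and in the one over both wild-type days, the set passed the filter only through Zld294, where it was high. Its call is therefore no test of that direction. His1:CG33816 was at 103 to 163 TPM in Zld294 (median 127), within the wild-type range.

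Zld294 was also set against Zf5, and limma called 0 of the 5 class sums, with 3 at an unadjusted p under 0.05, where 6.5% of 6974 features were called. The log2 fold change of Zld294 against Zf5 was -1.21 for His3 (95% interval -2.15 to -0.28, adjusted p = 0.101), -1.18 for His2B (-2.18 to -0.18, adjusted p = 0.126) and -0.49 for His2A (-0.94 to -0.05, adjusted p = 0.145). It was -0.04 for His1 and -0.17 for His4. Leaving out replicate 1 (His3 at -1.29) or replicate 3 (His3 at -1.39, His2B at -1.38) of Zf5 day 2 brought these classes past the threshold.

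Among single copies 20 sets were tested in that comparison, 2 were higher and 5 lower in Zld294, and 6.57% of all features of that fit were called. The largest called differences were in His1, at -3.29 for His1:CG31617 (SE 0.37, adjusted p = 1.98e-05), -3.31 for His1:CG33834 (adjusted p = 8.41e-05, and -5.10 with a pseudocount of 0.1), -2.23 for His1:CG33852 (adjusted p = 0.0095) and 2.18 for His1:CG33816 (adjusted p = 0.00821). Zld294 held values under 1 TPM of His1:CG31617, His1:CG33834 and His1:CG33852. They passed the filter only through Zf5, where they were high, so their calls are no test of that direction. His2A:CG33808 differed by -1.32 (adjusted p = 0.00866), with 61.0 to 184 TPM in Zld294 and 122 to 612 TPM in Zf5. That call was lost against Zf5 of day 1 alone (-0.69, adjusted p = 0.084). The remaining called sets were led by His1:CG33810 (-0.85, adjusted p = 0.0341) and His1:CG33861 (0.76, adjusted p = 0.03). Both calls were lost without replicate 2 of Zf5 day 2 or replicate 1 of Zf5 day 1, that of His1:CG33810 also without replicate 4 of Zf5 day 2 or replicate 2, 3, 4, 6, 7 or 8 of Zld294 (-0.92 to -0.73), and that of His1:CG33861 also without replicate 1, 3, 4, 5 or 7 of Zld294 (0.67 to 0.87). Both were also lost against Zf5 of day 2 alone (-0.81 and 0.56), that of His1:CG33810 with no filter or with the maternal score (-0.58), and that of His1:CG33861 under median-ratio scaling or in 1 fit of all 26 libraries. Against Zf5 of day 1 alone His1:CG33861 was at 1.16.

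The 2 wild-type groups were compared because their labels differ. limma called 0 of the 5 class sums, with 1 at an unadjusted p under 0.05, where 8.28% of 7079 features were called. The log2 fold change of day 2 against day 1 was 0.76 for His2B (95% interval 0.02 to 1.50, adjusted p = 0.202), 0.81 for His3 (adjusted p = 0.367) and 0.26 for His2A (adjusted p = 0.349). The day 2 wild type carries an H2B fusion, so the His2B share of the 4 core classes was examined. It was 20.0% ± 3.97 (SD, n = 6) on day 2 and 15.0% ± 2.81 (SD, n = 3) on day 1, with a two-sided exact permutation p = 0.119 (0.238 adjusted over 2 tests). In Zf5 day 2 the share was 30.2% ± 20.6 (SD, n = 6), and the exact permutation p against wild type day 2 was 0.247. Among single copies 1 of 21 sets was called between the wild types, where 8.2% of features were. It was His2A:CG33808, at 201 to 236 TPM on day 1 and 276 to 422 TPM on day 2 (log2 fold change 0.78, SE 0.14, adjusted p = 0.0132), where the median of all features was 0.19. That call was lost without replicate 1 or 2 of day 1 (0.74 to 0.86 over the 9 libraries left out, adjusted p up to 0.155 over its alternatives), under median-ratio scaling and in 1 fit of all 26 libraries. In Zf5 the same copy was at 122 to 327 TPM on day 1 and 262 to 612 TPM on day 2. Between the days of Zf5, limma called 0 class sums, with 0 at an unadjusted p under 0.05, and 0 of 7834 features, with 387 at an unadjusted p under 0.05.

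Genes tied to the array or to histones more widely were taken as 31 genes in 4 lists, all of which were found and tested. The lists held 10 locus body and promoter factors, 7 genes of 3' end processing, 8 histone chaperones and 6 histone variants and linker. Of the 31, 1 was called in Zf5 against wild type, where 4.91% of all features were, and had a higher level, with a list median log2 fold change of -0.02 where all features had 0.01. It was Cpsf100, a subunit of the complex that cleaves histone pre-mRNA, at 72.9 ± 8.10 TPM in wild type and 94.8 ± 10.8 TPM in Zf5 (SD, n = 9 each; log2 fold change 0.37, limma adjusted p = 0.0421). Among the 18 libraries, that call was kept without replicate 1, 3, 5 or 6 of Zf5 day 2 and lost without any other (0.35 to 0.39), and it was lost under median-ratio scaling (0.33). In Zld294 against wild type 4 were higher and 1 lower, where 15.1% of all features were called, with a list median of 0.17 where all features had 0.13. The higher genes were asf1, an H3-H4 chaperone (32.3 to 127 TPM in wild type and 97.7 to 231 TPM in Zld294, log2 fold change 1.23, adjusted p = 0.000724), Clamp, which binds GA repeats in the array (0.42), Lsm10 of the U7 particle (0.47) and Cpsf100 (0.27). Nap1, an H2A-H2B chaperone, was lower (818 ± 211 TPM in 9 wild-type libraries and 530 ± 126 TPM in 8 Zld294 libraries, SD; log2 fold change -0.62, adjusted p = 0.0217). The Nap1 call was lost against the wild type of day 1 alone (-0.13), and the Clamp call under median-ratio scaling (0.33) and in 1 fit of all 26 libraries (adjusted p = 0.351). The Cpsf100 call was lost under median-ratio scaling (0.18, adjusted p = 0.165), and its value was 0.44 against the wild type of day 1 alone. The Lsm10 call was kept without replicate 2, 3, 5 or 6 of wild type day 2 or replicate 1 of Zld294 and lost without any other library (0.40 to 0.53). It was also lost with no filter, under median-ratio scaling, with the maternal score, in 1 fit of all 26 libraries and against the wild type of day 2 alone (0.27), and its value was 0.86 against that of day 1 alone.

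In Zld294 against Zf5, 1 of the 31 genes was called, where 6.5% of all features were, with a list median of 0.41 where all features had 0.14. It was mxc, the scaffold of the histone locus body, at 14.4 to 210 TPM in Zf5 (median 44.5) and 141 to 351 TPM in Zld294 (median 220), with a log2 fold change of 2.09 (adjusted p = 0.0064), and of 1.06 with the maternal score as a covariate. Wild type spanned 15.0 to 271 TPM of mxc. Slbp ran from 24.4 to 138 TPM in wild type, from 17.8 to 275 TPM in Zf5 and from 75.7 to 131 TPM in Zld294, with ranges that overlapped and no call. The level of abo, described in Drosophila as a repressor of histone genes, was 12.9 to 26.5 TPM in wild type, 10.4 to 58.2 TPM in Zf5 and 14.8 to 25.6 TPM in Zld294, again with overlap and no call. Between the wild types 1 of the 31 was higher and 2 were lower on day 2, where 8.28% of all features were called, with a list median of 0.16 where all features had 0.19. Nap1 was higher (0.74, adjusted p = 0.00661), and the H2A variant His2Av (-1.61, adjusted p = 0.00209) and the elongation factor Spt6 (-0.52, adjusted p = 0.00782) were lower. The Spt6 call was lost without replicate 1 of day 1 (-0.55 to -0.50 over the 9 libraries left out), and in 1 fit of all 26 libraries those of Nap1 (adjusted p = 0.119) and Spt6 (adjusted p = 0.376) were lost.

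BigH1, the linker histone supplied by the egg, was measured beside the His1 copies. It ran from 206 to 582 TPM in wild type, from 45.2 to 1085 TPM in Zf5 and from 383 to 546 TPM in Zld294, and was not called in any comparison. As a share of BigH1 and His1 TPM together it was 20.8% to 63.8% in wild type, 6.89% to 75.5% in Zf5 and 44.6% to 60.4% in Zld294, with the lowest value in replicate 6 of Zf5 day 2.

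Across the 26 libraries the transcript whose log2 level was most like the summed histone copies was RpS23, a protein of the small ribosomal subunit (Pearson r = 0.852). RpL37A came next (0.840), and RpS15Aa (0.838) and RpS24 (0.837) were among the 5 nearest, of 6364 genes with a mean of at least 5 TPM. For the His2B sum the nearest was Torsin (0.925) and for the His3 sum CG9886 (0.876). These are descriptions over libraries that share genotype, day and stage, and they carry no test.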

How the data were processed

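Expression was measured in 26 libraries of pooled embryos, and the authors deposited 1 file of TPM values for each. The unit is read from the values, since the deposited values of a library add up to 1000000 over 14220 genes. The submitters' processing notes name kallisto, edgeR, limma and the build BDGP6 with no version or role; how reads were selected and split among near-identical copies is not given in the sources used here. Per the labels' protocols, TRIzol was used to isolate total RNA and an NEBNext Ultra II kit to make the libraries; poly(A) selection, rRNA depletion and strand are not stated, and histone mRNAs lack a poly(A) tail, which bears on their level. Because TPM has a fixed total, a change in abundant transcripts shifts all the rest.

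Copies were summed by class and put into the table in place of the copies, and a second fit kept each copy as a feature. Each fit used limma 3.58.1 in R 4.3.3 (lmFit, eBayes with trend) on log2(TPM + 1), which understates changes of low genes, over features at 1 TPM or more in at least the number of libraries in the smaller group (3, 6 or 8), with Benjamini-Hochberg adjustment over all features and a threshold of 0.05. Groups and days came from the labels. Shares were compared with exact permutation tests. Alternatives were another pseudocount, no filter, median-ratio scaling, a fit of all libraries, the maternal score as a covariate, the replicate block and each library left out. The scripts were tested on simulated data. The 5 class sums were named throughout, with the highest and lowest copy of each class, Slbp, mxc, abo and BigH1, and up to 3 called genes of each list; other copies were named because they were called. The members and lists were chosen with earlier results of these data known. No 2 libraries were identical (highest correlation 0.997).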

Additional observations from a re-analysis of the deposited data

Results flagged for a closer look

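In 54 checks of 18 quantities within the groups of 6 or 8 libraries, 7 values lay far from the rest of their group, measured by the gap to the nearest library over the group's range. The threshold is Dixon's 95% critical value, which chance alone passes in about 1 in 20 groups, and all 7 were single copies, whose levels depend on how shared reads were divided. His1:CG33816 was 180.7 TPM in replicate 6 of Zf5 day 2, where the next library of the group had 35.7 TPM. In the same library His1:CG33861 was 38.22 TPM, where the next had 24.1 TPM. His1:CG33852 was 44.32 TPM in replicate 3 of Zf5 day 2 (next 16.7 TPM) and 11.66 TPM in replicate 7 of Zld294 (next 3.61 TPM). His2B:CG33870 was 12.81 TPM in replicate 5 of wild type day 2 (next 3.70 TPM). His2B:CG33890 was 0.2602 TPM in replicate 1 of Zf5 day 2 and 0.1708 TPM in replicate 2 of Zld294, in groups that were otherwise below 0.001 TPM.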

How the results depend on the processing

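Of the alternative values of class sums, 596 kept direction and side of the threshold, 20 lost a call, 7 gained a call and 29 changed sign. The cause of the changes below was not tested. The replicate numbers did not pair the samples (correlations of same-numbered deviations from -0.541 to 0.647). The replicate block left 0 classes past the threshold in Zf5 against wild type over both days (His3 1.58, adjusted p = 0.0848), and of the 6 called sets those of His1:CG33816 and His1:CG33852 kept their call. Under the block the calls of His1:CG33852 on day 2 alone (adjusted p = 0.0891) and of His2B:CG33902 on day 1 alone (adjusted p = 0.0668) were lost.

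In Zf5 against wild type over both days 1 class passed, and 0 passed with no filter, median-ratio scaling, the maternal score, or without the 2 least-alike Zf5 libraries of day 2, a set chosen after the data were seen. Without 1 library the count was 0 to 1, and on day 1 alone it was 0 to 2 (2 without wild type replicate 3: His2B 1.56, His3 2.13). With copies as features, 2 classes, His1 and His2B, held a called copy over both days, and the 1 His3 set tested was not called. The number of classes with a called copy was 1 on day 1, 1 on day 2, 3 in Zld294 against wild type, 2 in Zld294 against Zf5 and 1 between the wild types. In Zld294 against wild type 1 class passed, and 0 passed with all 26 libraries in 1 fit or with wild type of day 1 alone. In Zld294 against Zf5, 1 passed with Zf5 of day 1 alone (His2B -1.04, adjusted p = 0.0234) and 0 to 2 without 1 library. Between the wild types 1 passed with the maternal score (His2B 1.06, adjusted p = 0.0342). The His2B share of all 5 classes was 4.86 percentage points higher on day 2 than on day 1 in wild type (exact permutation p = 0.0238).

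All sign reversals were of classes that were not called. Over both days of Zf5 they were His2A at -0.028 (median-ratio scaling), His2A at -0.074 (without the 2 libraries) and His4 at -0.013 (maternal score). On day 2 they were His2A at -0.044 (without the 2 libraries) and His2B at -0.11 (maternal score). In Zld294 against wild type they were His1 at 0.075 and His4 at 0.074 (maternal score) and His2B at 0.26 and His4 at 0.11 (wild type of day 1 alone). In Zld294 against Zf5 they were His1 at 0.18 (maternal score) and His1 at 0.14 and His4 at 0.053 (Zf5 of day 1 alone). Between the days of Zf5 His2B was -0.037 without the 2 libraries. Leaving out 1 library gave ranges of -0.14 to 0.050 for His1 and -0.088 to 0.12 for His2A over both days, -0.48 to 0.19 for His2A on day 1, -0.069 to 0.21 for His2A on day 2, -0.096 to 0.57 for the His2A interaction, -0.13 to 0.020 for His4 in Zld294 against wild type, -0.12 to 0.027 for His1 in Zld294 against Zf5 and -0.20 to 0.54 for His2B between the days of Zf5.

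Over the settings other than leaving out a library, the count of all features called ran from 191 to 1553 in Zf5 over both days (396 as reported), from 562 to 2086 in Zld294 against wild type (1036), from 348 to 4211 in Zld294 against Zf5 (453) and from 351 to 1427 between the wild types (586). Median-ratio scaling moved the share of these calls that was higher from 60.1% to 48.2% in Zf5 over both days, from 55.2% to 38.1% in Zld294 against wild type and from 67.7% to 44.8% between the wild types, where the median of all features moved from 0.19 to 0.017. TPM gives no read number, so no limit of detection is given.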
